A study of Mus musculus with 2 samples.

Results

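The cell cycle and replication genes are 37 genes that a dividing cell uses to copy its DNA and to separate the copies. They were taken by name from a table of 23571 genes, and the list was chosen with earlier results of these data known. Of the 37 genes, 16 act at the G1/S boundary or in S phase and 21 act in G2 or in mitosis. Each gene was represented by its most abundant RefSeq transcript, by reads summed over the libraries. All 37 had at least 10 reads, and their sums over both libraries ran from 310 reads (Cdc6) to 5709 reads (Mcm6).

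A cell that commits to division switches on the G1/S genes through E2F transcription factors once the pRb family releases them. Cyclin E with Cdk2 then starts S phase, licensed origins fire, and the MCM helicase unwinds DNA ahead of the polymerases. The G2 and M genes follow later under B-Myb and FoxM1, and they encode cyclin B with Cdk1, the mitotic kinases, the spindle checkpoint and the spindle motors. In the thymic medulla, epithelial cells with high MHC class II contain cells that have recently divided as well as many that no longer divide. Such genes therefore give a readout of how many cells cycle and of where in the cycle they are.

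Both libraries came from 1 lentigenic mouse, made by microinjecting a lentiviral vector into oocytes. The vector held doxycycline-inducible small hairpin RNAs against Clp1 with a green reporter (ZsGreen, called GFP), and a Tet activator driven by the EF1 promoter. Doxycycline was given in the food (2 g per kg), starting at an age of 3 weeks and lasting 2 weeks. The Clp1_KD library was made from its GFP+ mTEChi and the Ctr library from its GFP- mTEChi, sorted as CD45-, MHCII-high cells with low or intermediate Ly51. The 2 populations thus came from the same animal on the same food, and were separated by expression of the reporter that marks the hairpins.

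The Clp1_KD library held 37524730 reads over all transcripts and detected 26635 of them, and the Ctr library held 28464803 reads and detected 25808. With 1 library per group there was no replicate check, and no p-value was computed. Each 95% interval given here is exact (Clopper-Pearson), rests on the share of reads in the Clp1_KD library, and covers counting error only, since the libraries carry no molecular identifiers and PCR copies count as separate reads. Levels are reads divided by a size factor of 1.14 for Clp1_KD and 0.879 for Ctr, called scaled reads, and log2 ratios are Clp1_KD over Ctr. A gene was called higher or lower when it differed by at least 2-fold, its interval excluded 0, and it had at least 10 reads over both libraries. Clp1 itself, a kinase of the pre-mRNA 3' end processing machinery (NM_133840, mm9 chromosome 2, 84562261 to 84567507), had 812 reads in Clp1_KD and 1573 reads in Ctr. Its scaled level in Clp1_KD was 39.9% of that in Ctr (36.6% to 43.5%), which matched the labels.

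The RefSeq promoters of these genes (build GRCm38.p6, 300 bases each, 250 before and 50 after the transcription start) carried different short motifs in the S phase and G2/M sets. Promoters were found for 30 of the 37 genes. Ccna2, Ccne2, Aurkb, Foxm1, Kif20a, Mcm4 and Tpx2 had none in the table. An E2F word (TTTCCCGC, TTTGGCGC, TTTCGCGC or TTTGCCGC, on either strand) was found in 7 of 14 S phase genes, 50%. It was found in 1 of 16 G2/M genes (Cdk1), 6.25%, and in 2.26% of all 32851 promoters. The CHR words TTTGAA or TTCGAA, named after the cell cycle genes homology region that MuvB complexes bind, were found in 12 of 16 G2/M genes, 75%. They were found in 2 of 14 S phase genes (Mcm2 and Mcm7), 14.3%, and in 19.2% of all promoters. All 12 of those G2/M promoters also held CCAAT on either strand, a pair of motifs present in 7.52% of all promoters.

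The windows below, 30 bases each and printed 5' to 3' on the strand of the gene, show the E2F word in capitals for S phase genes that moved apart. In Mcm6 and Cdc6 the word lay before the start site, and in Cdt1 after it. The Mcm6 word began 110 bases and the Cdc6 word 138 bases upstream, and the Cdt1 word 32 bases downstream. The Mcm6 word overlaps a further E2F word on the other strand, and the capitals in Cdc6 are the reverse complement of TTTCCCGC.
Mcm6, chr1:128359797-128359826, minus strand: tggcgtatgctTTTGGCGCgaaaagtgcgt
Cdc6, chr11:98908002-98908031, plus strand: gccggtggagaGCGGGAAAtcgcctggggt
Cdt1, chr8:122568035-122568064, plus strand: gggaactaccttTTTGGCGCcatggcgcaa

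For G2/M genes the capitals mark the CHR word, which lay within 32 bases of the start in each window shown. Hmmr and Cdc20 are the members of this set with the highest and nearly the lowest ratio, and Aurka and Kif11 are printed because their 3' ends are described later. In Kif11 the capitals are the reverse complement of TTTGAA.
Hmmr, chr11:40733412-40733441, minus strand: agttgaggtaaaTTTGAAttcaggcgagct
Cdc20, chr4:118437344-118437373, minus strand: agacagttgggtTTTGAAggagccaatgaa
Aurka, chr2:172370521-172370550, minus strand: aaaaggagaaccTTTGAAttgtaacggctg
Kif11, chr19:37376351-37376380, plus strand: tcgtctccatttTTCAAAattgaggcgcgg

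Genes that shared a word did not share a ratio. The 12 G2/M genes with a CHR word ran from a log2 ratio of -1.03 (Cdc20) to 4.18 (Hmmr), with a median of -0.15. The 4 without one ran from -1.05 (Nusap1) to 1.01 (Cenpe), with a median of -0.13. The 7 S phase genes with an E2F word ran from -0.44 (Mcm5) to 1.37 (Mcm6), with a median of -0.01. The 7 S phase genes without one ran from -0.90 (E2f1) to 8.41 (Ccne1), with a median of -0.41. They included Ccne1 and Rrm1, which had the largest S phase ratios. A match is a description of these letters only.

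Across the whole set the cell cycle genes were centred where all genes were, with a few members far above. The median log2 ratio of the 37 genes was 0.00, against 0.03 for all 18993 genes with at least 10 reads. Medians over a list are on the log2(scaled reads + 0.5) scale. The members called higher were Ccne1, Mcm6, Rrm1, Cenpe, Tpx2 and Hmmr, 6 of 37 or 16.2%, beside 22.1% of all genes. Those called lower were Cdc20 and Nusap1, 2 of 37 or 5.41%, beside 19.6% of all genes. Calls were less frequent among the 10951 genes within the members' own range of reads, of which 15% were called higher and 15.1% lower. Against these genes the share called higher was near the background, and the share called lower was below it.

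**Figure D1:**
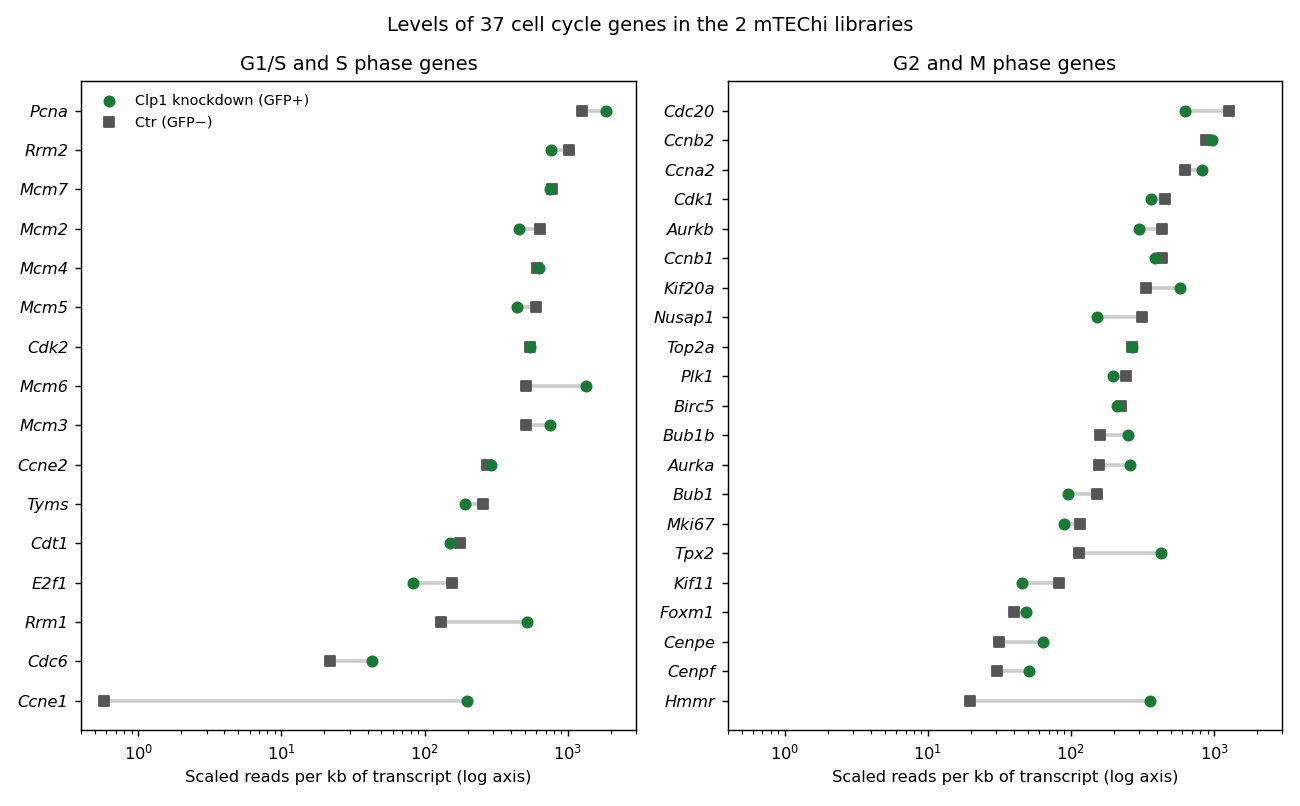
Scaled reads per kb of transcript (log axis) of the 37 genes in the Clp1_KD library (green circles) and the Ctr library (grey squares), sorted by the Ctr level within G1/S and S phase genes (left) and G2 and M phase genes (right). Most pairs lie close together, and Ccne1 and Hmmr have the widest gaps, with 198 against 0.581 and 359 against 19.8 scaled reads per kb in Clp1_KD against Ctr.

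The cyclins and kinase that open S phase were uneven. Ccne1, cyclin E1, had 441 reads in Clp1_KD and 1 read in Ctr, a log2 ratio of 8.41 whose interval ran from 5.93 to 13.7. Its Ctr level was close to nothing, whereas its closest relative Ccne2, cyclin E2, had 1003 reads in Clp1_KD and 722 reads in Ctr, a log2 ratio of 0.10 (-0.04 to 0.24). Per kb of transcript the ratio of Ccne1 to Ccne2 was 0.677 in Clp1_KD and 0.00213 in Ctr. Cdk2, the kinase that both cyclins activate, had 1501 reads in Clp1_KD and 1170 reads in Ctr, a log2 ratio of -0.01 (-0.12 to 0.10). Ccne1 thus stood apart from its partner and from its paralogue. Of the 10951 genes in the members' range of reads, 29 (0.265%) had at most 1 read in Ctr and 14 (0.128%) had at most 1 read in Clp1_KD.

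E2f1, the activator of the G1/S programme, had 232 reads in Clp1_KD and 334 reads in Ctr, a log2 ratio of -0.90 (-1.14 to -0.65). The next members load the helicase at origins. Cdc6, the loader, had 223 reads in Clp1_KD and 87 reads in Ctr, a log2 ratio of 0.99 (0.62 to 1.36), which lay just under the 2-fold line. Cdt1, which works with Cdc6, had 373 reads in Clp1_KD and 342 reads in Ctr, a log2 ratio of -0.25 (-0.46 to -0.03). The 2 loading factors therefore lay on either side of 0, and neither was called.

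The MCM helicase is built from 6 subunits in equal number, and only its Mcm6 transcript was called. Mcm6 had 4396 reads in Clp1_KD and 1313 reads in Ctr, a log2 ratio of 1.37 (1.28 to 1.46). Mcm3 had 2470 reads in Clp1_KD and 1293 reads in Ctr, a log2 ratio of 0.56. Mcm4 (2586 reads in Clp1_KD and 1913 in Ctr) and Mcm7 (2055 in Clp1_KD and 1643 in Ctr) lay at 0.06 and -0.05, with intervals that held 0. Below 0 lay Mcm2, with 1749 reads in Clp1_KD and 1890 in Ctr (log2 ratio -0.48), and Mcm5, with 1724 in Clp1_KD and 1810 in Ctr (-0.44). Their levels per kb spanned 3.01-fold in Clp1_KD (443 to 1333 scaled reads per kb) and 1.53-fold in Ctr (509 to 780). Subunits that lay close together in Ctr were spread by Mcm6 in Clp1_KD, where the ratio of Mcm6 to Mcm2 per kb was 2.92, against 0.807 in Ctr.

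Members that supply the fork gave the same kind of contrast between partners. Ribonucleotide reductase, which makes deoxyribonucleotides, pairs a large subunit (Rrm1) with a small one (Rrm2). Rrm1 had 2362 reads in Clp1_KD and 457 reads in Ctr, a log2 ratio of 2.00 (1.85 to 2.15). By contrast, Rrm2 had 1895 reads in Clp1_KD and 1947 reads in Ctr, a log2 ratio of -0.41 (-0.50 to -0.32). The ratio of Rrm1 to Rrm2 per kb was accordingly 0.680 in Clp1_KD and 0.128 in Ctr. Tyms, thymidylate synthase, had 824 reads in Clp1_KD and 850 reads in Ctr, a log2 ratio of -0.42 (-0.56 to -0.28). Pcna, the sliding clamp, had 2647 reads in Clp1_KD and 1387 reads in Ctr, a log2 ratio of 0.56 (0.47 to 0.66). The annotation names 2 pseudogenes of Pcna and 1 of Ccnb2, whose reads could be shared with these genes.

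Proliferation markers of G2 and M lay close to 0. Mki67, the Ki-67 antigen of dividing cells, had 1020 reads in Clp1_KD and 1024 reads in Ctr, a log2 ratio of -0.38 (-0.50 to -0.25). Top2a, the topoisomerase that untangles sister chromatids, had 1594 reads in Clp1_KD and 1233 reads in Ctr, a log2 ratio of 0.00 (-0.11 to 0.11). Neither marker of cycling cells was therefore higher in Clp1_KD. Foxm1, the activator of the G2/M genes, had 239 reads in Clp1_KD and 153 reads in Ctr, a log2 ratio of 0.27 (-0.03 to 0.58).

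The mitotic cyclins and Cdk1 also lay within a narrow band. Ccna2 had 2650 reads in Clp1_KD and 1552 in Ctr (log2 ratio 0.40), and Ccnb2 had 1705 in Clp1_KD and 1197 in Ctr (0.14). Ccnb1 had 1013 reads in Clp1_KD and 876 in Ctr (-0.16), and Cdk1 had 1170 in Clp1_KD and 1136 in Ctr (-0.33). Cdc20, which switches on the anaphase promoting complex to end mitosis, fell just past the line. It had 1261 reads in Clp1_KD and 1985 reads in Ctr, a log2 ratio of -1.03 (-1.13 to -0.92). Its exons overlap those of Elovl1 on the opposite strand by 53 bp.

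Among the mitotic kinases and their partners, Tpx2 moved furthest. Tpx2 activates Aurora A on the spindle and had 2109 reads in Clp1_KD and 438 reads in Ctr, a log2 ratio of 1.90 (1.75 to 2.05). Aurka, the kinase it activates, had 561 reads in Clp1_KD and 262 reads in Ctr, a log2 ratio of 0.73 (0.51 to 0.94). The ratio of Tpx2 to Aurka per kb was 1.64 in Clp1_KD and 0.730 in Ctr. Aurkb, the kinase of the chromosomal passenger complex, had 667 reads in Clp1_KD and 743 in Ctr (log2 ratio -0.53), and Birc5 (survivin), a subunit of the same complex, had 818 in Clp1_KD and 675 in Ctr (-0.09). Plk1, the polo-like kinase, had 493 reads in Clp1_KD and 468 in Ctr (-0.30).

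The spindle checkpoint and kinetochore genes split as well. Bub1, a checkpoint kinase, had 467 reads in Clp1_KD and 578 reads in Ctr, a log2 ratio of -0.68 (-0.86 to -0.50). Its relative Bub1b (BubR1), which holds back Cdc20, had 1046 reads in Clp1_KD and 511 reads in Ctr, a log2 ratio of 0.66 (0.51 to 0.82). The ratio of Bub1b to Bub1 per kb was 2.65 in Clp1_KD and 1.05 in Ctr. Cenpe, a kinetochore motor, had 566 reads in Clp1_KD and 217 in Ctr, a log2 ratio of 1.01 (0.78 to 1.24), just inside the line. Cenpf, a large kinetochore protein, had 644 reads in Clp1_KD and 300 in Ctr (0.73).

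The spindle proteins held both extremes of the G2/M set. Hmmr, a spindle and hyaluronan-binding protein that brings Tpx2 to the spindle, had 1599 reads in Clp1_KD and 68 reads in Ctr, a log2 ratio of 4.18 (3.83 to 4.56). Of the 10951 genes in the members' range of reads, 102 (0.931%) had a ratio at least that large. Nusap1, which bundles spindle microtubules, had 510 reads in Clp1_KD and 815 reads in Ctr, a log2 ratio of -1.05 (-1.21 to -0.89), and its exons overlap those of Oip5 on the opposite strand by 172 bp. Kif11, the motor that separates the spindle poles, had 250 reads in Clp1_KD and 352 in Ctr (-0.86). Kif20a, a motor of the cleavage furrow, had 2335 reads in Clp1_KD and 1057 in Ctr (0.77), and it overlaps Cdc23 on the opposite strand by 1259 bp.

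Counting is not stated to use strand, so reads of overlapping genes on opposite strands cannot be told apart. Exons of 8 members overlap those of another protein-coding gene. Besides Cdc20, Nusap1 and Kif20a these were Ccna2 (Exosc9), Ccne2 (Ints8), Mcm7 (Ap4m1 and Cops6), Tyms (Gm17448) and Foxm1 (4933413G19Rik). Cdc20 had log2 ratios of -1.04 over its earlier exons and -1.03 over its last exon, and Nusap1 had -0.86 and -1.21. The part of overlap in these ratios was not tested. The share of all genes with such an overlap was not computed.

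**Figure D2:**
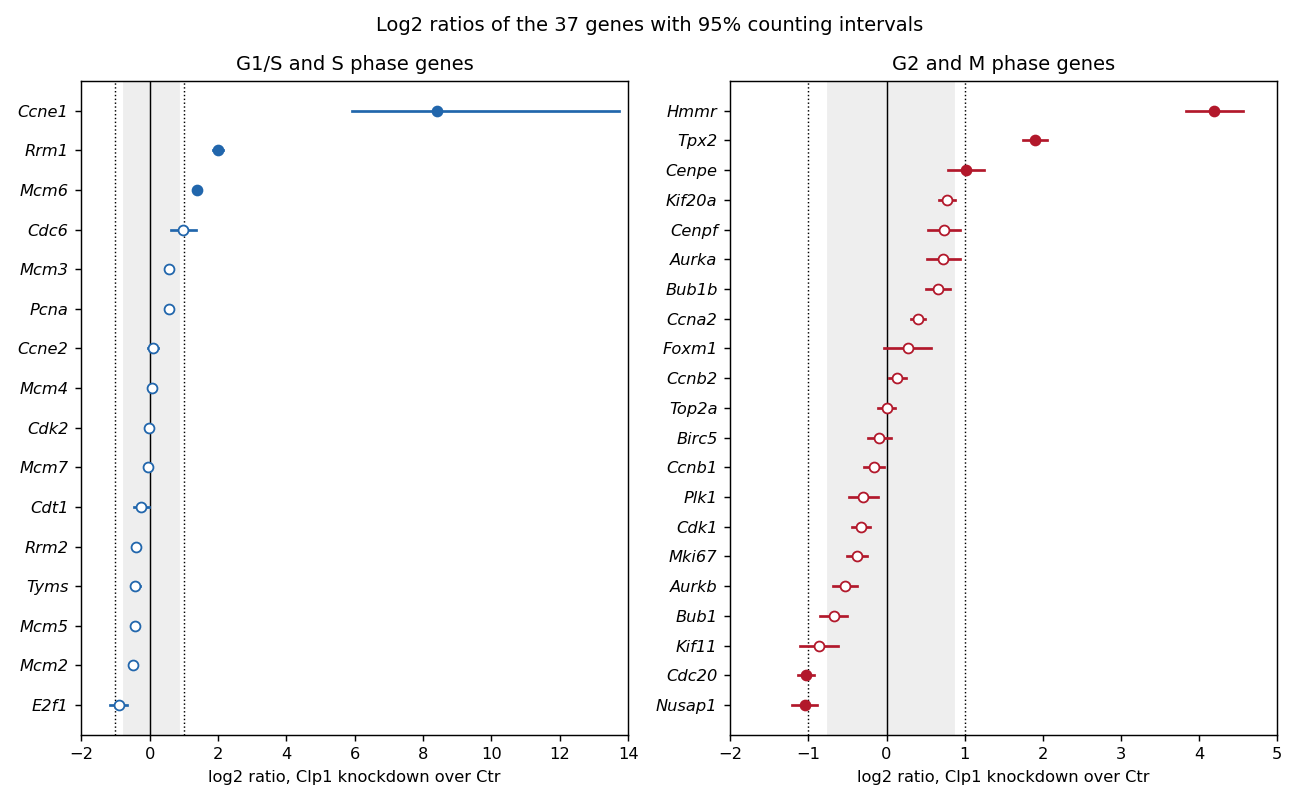
Log2 ratio of Clp1_KD over Ctr for each gene, with bars for the 95% counting interval. Filled points passed the 2-fold rule, dotted lines mark 2-fold and the grey band spans the middle 50% of all genes with at least 10 reads (-0.74 to 0.86). The panels have different ranges, and Ccne1 (8.41) and Hmmr (4.18) lie furthest from 0.

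The contrast of S phase with G2/M genes asked whether the cells of the 2 libraries were spread differently over the cycle. The median log2 ratio was 0.03 for the 16 S phase genes and 0.00 for the 21 G2/M genes, a difference of 0.03. In the S phase set, 8 of 16 genes lay above 0 and the middle 50% ran from -0.41 to 0.67. The G2/M set had 10 of 21 above 0, with the middle 50% from -0.38 to 0.73. The ranges of the sets overlapped nearly in full, and each set had 3 genes called higher. No S phase gene was called lower, and 2 G2/M genes were. The difference took both signs with the part of the transcript that was read, at 0.18 over the earlier exons and -0.17 over the last exon.

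In summed reads, the S phase genes came to 26481 reads in Clp1_KD and 17159 reads in Ctr, a log2 ratio of 0.26. For the G2/M genes the sums were 22717 reads in Clp1_KD and 15640 in Ctr, a log2 ratio of 0.17. These sums rest in part on single genes, since the S phase ratio was 0.11 without Mcm6 and the G2/M ratio 0.07 without Tpx2. In bulk RNA, fewer cells of a type and less RNA per cell cannot be told apart.

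**Figure D3:**
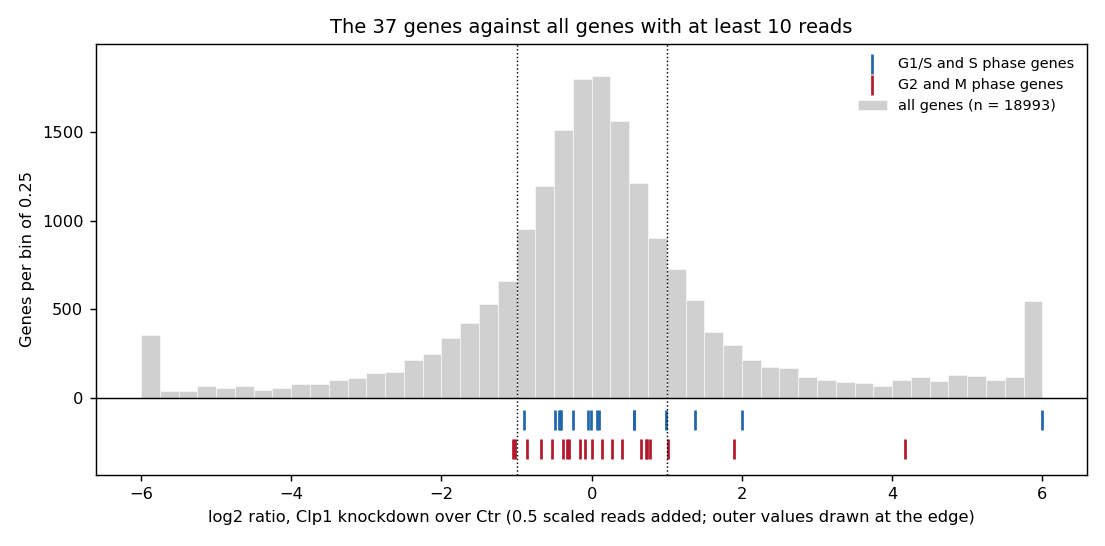
Number of genes per bin of 0.25 in the log2 ratio of Clp1_KD over Ctr for 18993 genes with at least 10 reads (grey bars, 0.5 scaled reads added), with tick marks below for the S phase genes (blue) and G2/M genes (red). Values beyond the axis are drawn at its edge, which holds Ccne1, and dotted lines mark 2-fold. Both rows of ticks centre near 0, where the median of all genes was 0.03.

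The ratios were set against base composition because the log2 ratio of all genes moved with it. The trend over all genes was 0.52 at a transcript GC content of 40%, 0.03 at 50% and -0.51 at 60%. The median GC content was 49.5% for the S phase genes, 47.2% for the G2/M genes and 50.2% for all genes. With the trend subtracted, Ccne1, Rrm1, Mcm6, Hmmr and Tpx2 stayed past 2-fold, at 8.54, 1.63, 1.15, 3.72 and 1.71 on the log2 scale. Cenpe (0.59) and Cdc20 (-0.69) no longer passed, and Bub1 (-1.16) and Kif11 (-1.31) passed as lower beside Nusap1 (-1.51). The proliferation markers stayed within 2-fold, with Mki67 at -0.64 (-0.77 to -0.52) and Top2a at -0.41 (-0.52 to -0.30). Of all 37 members, 19 lay above 0 after the subtraction. Among the members that changed sign was Cdt1, at 0.23 (0.01 to 0.44), then on the same side of 0 as Cdc6 (0.90). The part of base composition in the ratios was not tested beyond this subtraction.

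Reads in separate parts of a transcript were compared. Both parts came from the same amplified library, so their agreement cannot check gain or loss of whole transcripts during amplification. Over the earlier exons and over the last exon, 31 of 36 genes had ratios of the same sign, 86.1%, beside 81.1% of 13269 genes with at least 10 reads and a finite ratio in both parts. Ccne1, with no last-exon read in Ctr, was not among the 36. The parts differed by at least 1 on the log2 scale in 4 of 36, 11.1%, beside 21.0% of all genes. Ccne1 had 223 reads in Clp1_KD and 1 in Ctr over its earlier exons, and 218 in Clp1_KD and 0 in Ctr over its last exon. Against a floor of 3 reads in Ctr, the last exon was 56.2-fold higher in Clp1_KD, and the interval of its log2 ratio began at 5.50.

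Its reads thus covered both parts of the transcript in Clp1_KD, and the other large ratios also held in both. Hmmr had log2 ratios of 3.92 over the earlier exons (995 reads in Clp1_KD and 51 in Ctr) and 4.73 over the last exon (584 in Clp1_KD and 17 in Ctr). Rrm1 had 2.09 and 1.84 in these parts, and Tpx2 had 2.08 and 1.46. For Mcm6 the earlier exons gave 1.54 and the last exon 0.92, which is under 2-fold.

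The 4 genes whose parts disagreed most were Cdc6, Cenpe, Cenpf and Kif11. Cdc6 had 129 reads in Clp1_KD and 75 in Ctr over the earlier exons, a log2 ratio of 0.41, and 85 in Clp1_KD and 12 in Ctr over the last exon, 2.45. Cenpe and Cenpf had ratios of 0.91 and 0.59 over the earlier exons, and 2.16 and 2.10 over the last exon, where Cenpe had only 9 reads and Cenpf 15 reads in Ctr. Kif11 differed the other way, with -0.47 over the earlier exons and -1.52 over the last exon.

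**Figure D4:**
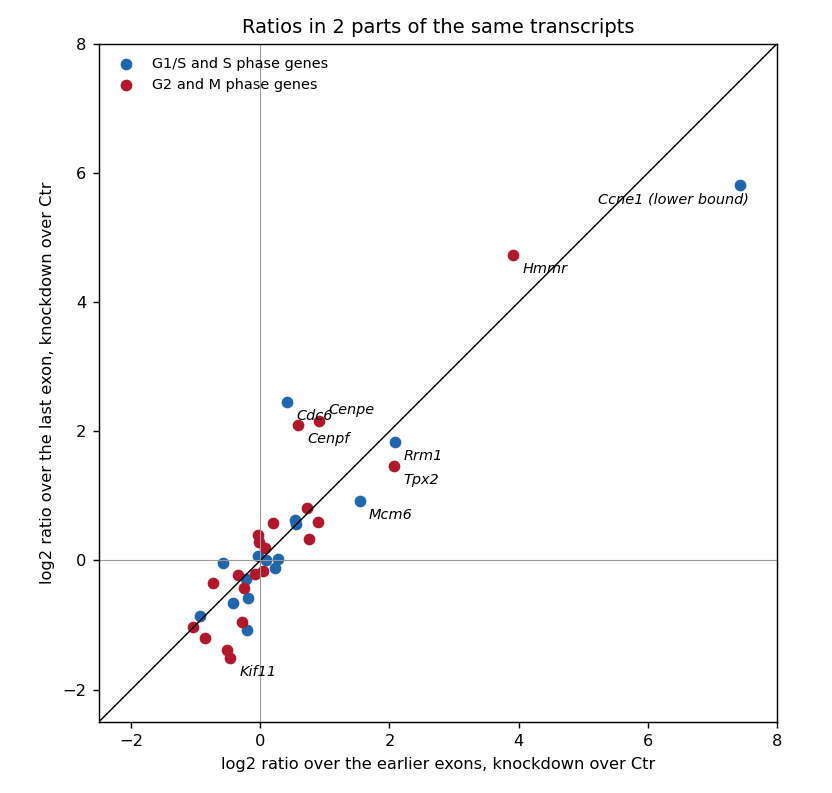
Log2 ratio of Clp1_KD over Ctr in the earlier exons (horizontal axis) and in the last exon (vertical axis) of the same transcripts, for S phase genes (blue) and G2/M genes (red). The diagonal marks equal ratios, and Ccne1, labelled as a lower bound, is drawn at its last-exon value against a floor of 3 reads in Ctr. Hmmr (3.92 and 4.73) lies near the diagonal, and Cdc6 (0.41 and 2.45) far above it.

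Clp1 acts where transcripts end, so the distal 3'UTR of the cell cycle genes was examined next. The distal 3'UTR (d3'UTR) is the stretch beyond the first annotated poly(A) site, and the d3'UTR ratio is its read density over that of the rest of the last exon. Of the 37 genes, 19 had such a stretch, and all 19 had at least 10 last-exon reads in each library. A change was called when the odds of distal reads differed by at least 2-fold with an interval that excluded 0. Of the 12 G2/M genes among them, 5 had a lower d3'UTR ratio in Clp1_KD, beside 12.7% of 5598 genes. They were Aurka, Bub1, Cenpf, Kif11 and Tpx2. A higher ratio was called for Ccnb2, 1 of the 12, beside 14.1% of those genes, and none of the 7 S phase genes was called either way. Mcm4 and Rrm1 among the 7, and Cdk1 and Nusap1 among the 12, had too few distal reads for a measurable ratio.

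Kif11 showed the widest gap. It had 10 distal and 61 upstream reads in Clp1_KD, against 104 distal and 53 upstream reads in Ctr, giving d3'UTR ratios of 0.220 in Clp1_KD and 2.64 in Ctr. The log2 odds were -3.56 (-4.81 to -2.45). The upstream part of its last exon thus held similar reads in both libraries, and the distal part held few in Clp1_KD.

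Bub1 had 9 distal and 58 upstream reads in Clp1_KD, against 62 and 74 in Ctr, and its log2 odds were -2.42 (-3.73 to -1.26). In Tpx2, 77 reads were distal and 378 upstream in Clp1_KD, against 44 and 84 in Ctr, with log2 odds of -1.36 (-2.03 to -0.69). Tpx2 was higher as a whole while its distal share was lower. Aurka had d3'UTR ratios of 0.539 in Clp1_KD and 1.24 in Ctr, with log2 odds of -1.20 (-1.98 to -0.41). Cenpf had 0.558 in Clp1_KD and 2.40 in Ctr, a value that rests on 15 last-exon reads in Ctr, and the interval of its log2 odds ran from -4.65 to -0.06.

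Ccnb2 went the other way, with d3'UTR ratios of 0.355 in Clp1_KD and 0.170 in Ctr (log2 odds 1.07, 0.20 to 1.99). Genes with many distal reads and no call included Ccna2 (1143 distal reads in Clp1_KD and 587 in Ctr, log2 odds 0.07) and Kif20a (758 in Clp1_KD and 344 in Ctr, -0.13). Rrm2 had 817 distal reads in Clp1_KD and 986 in Ctr (-0.36), and Pcna had 320 in Clp1_KD and 181 in Ctr (-0.19). Mcm4, Rrm1, Cdk1 and Nusap1 had at most 2 distal reads in either library, so their d3'UTR ratio was not measurable at this depth. The median log2 odds were -0.66 over the 12 G2/M genes, 0.47 over the 7 S phase genes and 0.00 over all genes, with 0.5 reads added to each part. The medians of both sets include the genes that were not measurable.

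**Figure D5:**
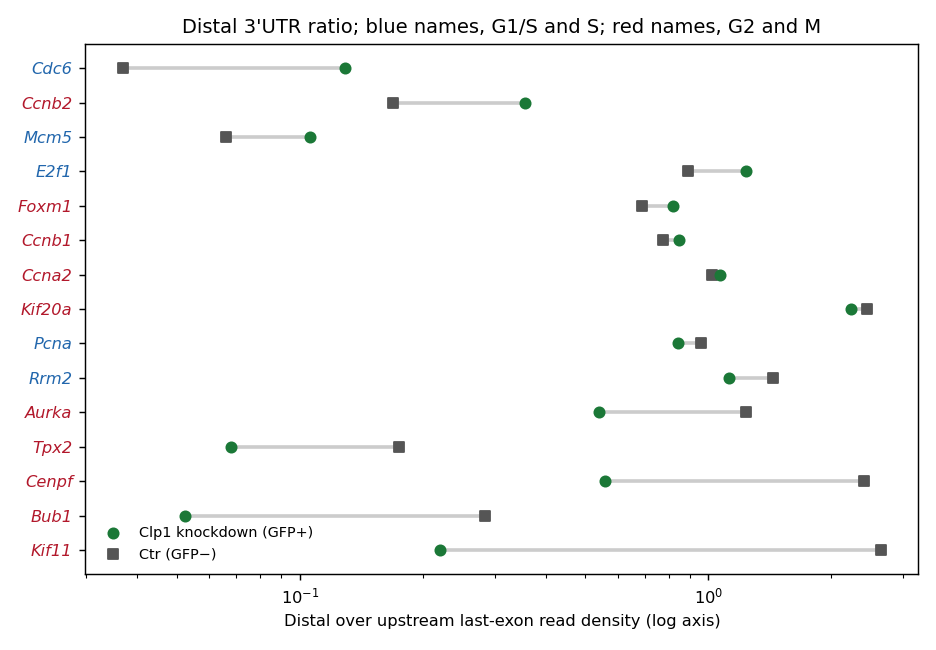
Distal 3'UTR ratio (read density of the distal part over that of the upstream part of the last exon, log axis) in Clp1_KD (green circles) and Ctr (grey squares) for the 15 genes with distal reads in both libraries, sorted by the log2 odds. Blue names are S phase genes and red names are G2/M genes. The 5 lowest rows, Kif11 to Aurka, are the genes called lower in Clp1_KD, among them Kif11 with 0.220 in Clp1_KD and 2.64 in Ctr.

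Other genes of the same pathways were counted from lists of related functions. Of 50 other replication genes, 14 were called higher and 1 lower, 28% and 2%, with a median log2 ratio of 0.32. Beside them, 22.1% and 19.6% of all genes were called, and 15% and 15.1% of genes within the members' range of reads. The 50 genes ran from 120 to 6806 reads, a wider range than the members' 310 to 5709. With the GC trend subtracted, 11 of the 50 were higher and 2 lower, with a median of 0.26. Of all 17124 genes with a known GC content, 3420 were then higher and 3166 lower. Those with the largest ratios fire or license origins. Gins1, a subunit of the GINS complex of the helicase, had 194 reads in Clp1_KD and 0 reads in Ctr. Its scaled level in Clp1_KD was 50.01-fold a floor of 3 reads in Ctr. The interval of its log2 ratio began at 5.33. Cdc7, the kinase that fires origins, had 520 reads in Clp1_KD and 40 in Ctr (log2 ratio 3.33).

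Mcm10 and Orc1, which prepare origins, had 186 and 153 reads in Clp1_KD, against 35 and 32 reads in Ctr, with log2 ratios of 2.04 and 1.89. The gene called lower was Ung, the uracil glycosylase of base excision repair, with 25 reads in Clp1_KD and 95 in Ctr (-2.30). These 4 genes with the largest ratios had 0 to 40 reads in Ctr.

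Of 42 other G2 and M phase genes, 10 were called higher and 4 lower, 23.8% and 9.52%, with a median of 0.33. The share called higher was near the 22.1% of all genes, and the share called lower was under their 19.6%. Of genes within the members' range of 310 to 5709 reads, 15% were called higher and 15.1% lower. The 42 genes ran from 220 to 7253 reads, so their shares are not read against that background. After GC subtraction 7 of the 42 genes were higher and 4 lower, with a median of 0.18. Of all 17124 genes with a known GC content, 3420 were then higher and 3166 lower. Sgo1, the protector of centromeric cohesion, had 332 reads in Clp1_KD and 4 in Ctr (log2 ratio 6.004). Kif18a, a motor that aligns chromosomes, had 214 in Clp1_KD and 6 in Ctr (4.79). Anln, a scaffold of the cleavage furrow, had 1185 in Clp1_KD and 97 in Ctr (3.24), and Nuf2, a kinetochore subunit, had 489 in Clp1_KD and 61 in Ctr (2.63).

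Mitotic genes also made up the 4 called lower. They were Espl1, the separase (198 reads in Clp1_KD and 464 in Ctr, log2 ratio -1.60), Cdca2 (138 in Clp1_KD and 299 in Ctr, -1.49), the condensin subunit Ncapg (385 in Clp1_KD and 817 in Ctr, -1.46) and the centromeric histone Cenpa (451 in Clp1_KD and 852 in Ctr, -1.29). Kinetochore and spindle genes lay on both sides, as the members did.

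Regulators upstream of both phases also had calls in both directions. Of 8 G1 cyclins and kinases, 2 were called higher and 1 lower, 25% and 12.5%, beside 22.1% and 19.6% of all genes. The higher ones were Cdc25a, the phosphatase that frees Cdk2 (932 reads in Clp1_KD and 187 in Ctr, log2 ratio 1.95), and Skp2, which marks p27 for destruction (689 in Clp1_KD and 205 in Ctr, 1.38). Cdk6 was lower (129 in Clp1_KD and 255 in Ctr, -1.35). The D-type cyclins Ccnd1 and Ccnd2 lay at 0.64 and 0.69, and Ccnd3 at -0.94. None of 8 CDK inhibitors was called, beside the same shares of all genes. The largest of these in reads, Cdkn1a (p21), had 7804 reads in Clp1_KD and 11486 in Ctr (-0.93), and one of them, Cdkn2c, passed as higher once the GC trend was subtracted.

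Of 19 genes of the pRb, E2F, DREAM and MYB-MuvB complexes, 4 were called higher and 2 lower. These were 21.1% and 10.5%, beside 22.1% and 19.6% of all genes. The higher ones were the pocket protein Rbl1 (646 reads in Clp1_KD and 128 in Ctr, log2 ratio 1.96), the MuvB subunits Lin54 (827 in Clp1_KD and 91 in Ctr, 2.81) and Lin9 (415 in Clp1_KD and 155 in Ctr, 1.05), and Mybl1. Mybl1 had 15 reads in Clp1_KD and 0 in Ctr, 3.87-fold higher against the floor of 3 reads. The interval of its log2 ratio began at 1.47. Those called lower were E2f2 (604 in Clp1_KD and 1466 in Ctr, -1.65) and Mybl2, B-Myb (328 in Clp1_KD and 615 in Ctr, -1.28). None of 13 anaphase promoting complex subunits was called, beside the same shares of all genes, and their median was 0.08.

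The libraries also differed in markers of cells outside the gate, and the part of this in the cell cycle ratios was not tested. Thymocyte markers were lower in Clp1_KD for 17 of 21 genes, with summed levels of 10812 scaled reads in Clp1_KD and 32074 in Ctr. All 8 endothelial markers were lower (1336 in Clp1_KD and 19452 in Ctr), as were 6 of 8 fibroblast and mural markers and 5 of 7 B cell markers. Red cell markers were lower for 4 of 5 genes (3494 in Clp1_KD and 102121 in Ctr), and Klf1 was higher (135 reads in Clp1_KD and 6 in Ctr). Of those lower, Hba-a1 and Hba-a2 share all their reads, which enter the call count and the sums once for each gene. Of 11 dendritic cell and macrophage markers, 4 were lower and 1 higher, while their summed level was higher in Clp1_KD (17873 in Clp1_KD and 14101 in Ctr). Of 8 cortical epithelial markers, 5 were lower (32538 in Clp1_KD and 41764 in Ctr). Thymic epithelial markers were higher for 4 of 9 genes (181676 in Clp1_KD and 123669 in Ctr), and mature mTEC markers were higher for 1 and lower for 2 of 11 (738689 in Clp1_KD and 680573 in Ctr). No marker list had its defining genes at 0 in either library.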

How the data were processed

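Total RNA of GFP+ (Clp1_KD) and GFP- (Ctr) mTEChi was amplified by template switching from low input, fragmented with transposase and sequenced from 1 end. The authors aligned reads to mm9 with Bowtie 1.0.0 and counted those lying fully within exons with bedtools, as the submitters' processing notes and the study's methods state. The deposited counts are whole reads for 30794 RefSeq transcripts, without normalization. A further table deposited by the authors holds such counts, with lengths, for the parts of 27567 transcripts. Whether counting used strand is not stated there. The authors' DESeq table holds scaled counts, fold changes and p-values from 1 library per group and was not used.

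Symbols came from RefSeq (30216 transcripts matched), and positions, overlaps and GC content from the mm9 genome with GENCODE vM1. GC content was known for 90.2% of genes with 10 reads. Scaling used median-of-ratios size factors (numpy 2.4.6, scipy 1.17.1), with TMM factors of edgeR 4.0.16 as an alternative, and the code was tested on simulated data. For d3'UTR ratios, at least 10 last-exon reads were required in each library. The 37 genes, the 6 other cell cycle lists and 9 marker lists were chosen with earlier results of these data known. Named in the text were every member, up to 4 called genes in each direction of the other replication and G2/M lists, every called gene in the regulator lists, and Clp1. Ccnd1, Ccnd2, Ccnd3, Cdkn1a and Cdkn2c were named after their values were seen. Hbb-b1 was not matched.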

Additional observations from a re-analysis of the deposited data

How the results depend on the processing

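With 1 library per group no replicate could be left out, and both libraries came from 1 mouse. No paired analysis was possible because there is only 1 pair. The TMM factors, total reads, other read minimums, other pseudocounts, the longest transcript, thinning the Clp1_KD library and GC subtraction left both medians and both counts of calls near their main values. No called gene changed direction under any alternative run. Single calls did change. Cenpe was lost with total reads and with thinning, and Cdc6 was gained with thinning and with the longest transcript. GC subtraction moved 29 of 37 genes outside their counting interval. With every transcript as an entry of its own (50 transcripts of the 37 genes), 11 entries were higher, the G2/M median was 0.21 and the difference of medians -0.18. That setting gives genes with several transcripts more weight. Without Ccna2, Cdk1, Foxm1 and Top2a, whose transcripts rise from S phase on, the difference was 0.12.

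The remaining alternatives were chosen after seeing the data. Over earlier exons only, the S phase median was 0.16, the difference 0.18 and 1 gene was lower. Over the last exon only, the G2/M median was 0.19, the difference -0.17 and 5 genes were lower. Without the 8 members that overlap another protein-coding gene, 0 were lower, which follows from removing Cdc20 and Nusap1, the only genes called lower. Across settings the difference took both signs. The size of the Ccne1 ratio rests on 1 Ctr read, and the d3'UTR ratio of Cenpf on 15 last-exon reads in Ctr.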
